A study of Mus musculus with 34 samples.

Results

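Transcripts of 10 hypoxia and glycolysis genes were followed in brushed tracheal epithelium of mice given a tobacco carcinogen. The genes were Bnip3, Slc2a1, Pfkp, Ldha, Pdk1, Egln3, Vegfa, Adm, Car9 and Ndrg1, taken from the knockout table by symbol. They are 10 of its 24223 genes, and all 10 passed the filter on low counts that left 14847 genes for testing.

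Cells sense oxygen through prolyl hydroxylases, which mark the alpha subunits of hypoxia-inducible factor (HIF) for destruction while oxygen is present. When oxygen falls, HIF accumulates and raises transcription of genes that bring glucose into the cell, break it down to lactate, keep pyruvate out of mitochondria, remove mitochondria and recruit vessels. Glycolytic genes are also set by growth signals and by cell type, and airway ciliated, secretory and basal cells differ in how they use glucose and mitochondria.

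All mice of the time course were Gprc5a-/-, lacking a receptor gene of lung epithelium, and each of the 28 mice gave 1 library. The baseline group (n = 6) had received no carcinogen. The other groups had been given 50 mg/kg of the tobacco nitrosamine NNK intraperitoneally, 3 times a week over 8 weeks, and were brushed at the end of dosing (t0, n = 6) or 2 (t2, n = 5), 4 (t4, n = 6) or 6 months later (t6, n = 5). The labels give an age of 6 to 8 weeks for every group, including those sampled months after dosing. No unexposed knockout mice as old as the later groups were analysed here, so exposure, time after it and age cannot be told apart in any comparison with baseline. A further 6 libraries came from unexposed wild-type mice and were processed apart from the others.

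Total counts of knockout libraries were 15.6 to 37.6 M, and Gprc5a counts were 4 to 49 in 27 of them. The library labelled t2 339 held 238 Gprc5a counts and the fewest detected genes (14283). Haemoglobin transcripts took 22.8% of t0 357, 25.5% of t4 371 and 15.3% of t6 349, against at most 3.06% elsewhere. The ribosomal RNA precursor Rn45s took 14.8% of t6 365 and 7.68% of t6 366, against 1.24 to 6.30% elsewhere. Libraries 365 and 366 were left out only singly. The t0 library 359 had a summed ciliated marker level of 2173 CPM (counts scaled to a common library size), against 649 to 1099 in the other t0 libraries. Epithelial markers (5 of 5, among them Epcam and Cdh1) were detected in every library, with sums of 3276 to 8764 CPM. Each count of genes below was also obtained without the 4 libraries 339, 357, 371 and 349, and again without 359 as well. The shares of all genes given beside the counts are those with all 28 libraries. A call gained without these libraries is thus not set against a share from the same fit.

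Levels below are CPM after TMM scaling of library sizes. Fold changes are log2 values ± standard error from edgeR's quasi-likelihood test, two-sided, with p-values adjusted by Benjamini-Hochberg over the 14847 genes. A gene is said to have risen or fallen where the adjusted p was under 0.05, and intervals span 2 standard errors either side.

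At the end of dosing, 5 of the 10 genes differed from baseline, in both directions. Pfkp and Ldha rose while Bnip3, Slc2a1 and Pdk1 fell, against 45.5% of all genes called in that comparison (23.3% rose and 22.3% fell). In the same 5 genes the t0 and baseline libraries did not overlap, which held for 25.8% of all genes. The count was 6 of 10 without the 4 libraries, with Adm added, and 5 of 10 without all 5. The median log2 fold change of the 10 genes was 0.16, beside 0.02 over all genes tested, and their median absolute value was 0.64, beside 0.48.

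Fewer of the genes differed from baseline at later times. Pfkp rose and Pdk1 fell at t2, 2 of 10, against 19.9% of all genes (11.2% rose and 8.73% fell), and both were free of overlap, as were 11.9% of all genes. The same 2 genes were called and free of overlap at t4, where 19.6% of all genes were called (10% rose and 9.56% fell) and 13% did not overlap. At t6 only Pfkp of the 10 was called and free of overlap, against 8.83% (4.54% rose and 4.29% fell) and 9.39% of all genes. The median absolute log2 fold change of the 10 genes was 0.39 (t2), 0.09 (t4) and 0.15 (t6), beside 0.34, 0.32 and 0.26 over all genes. Without the 5 libraries Bnip3 was called too, lower at t2 (-0.55, adjusted p = 0.013) and higher at t6 (0.47, adjusted p = 0.045).

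Set against t0, 3 of 10 genes were called at t2 (29.9% of all genes, 15.7% up and 14.2% down), 3 at t4 (33.4%, 15.9% up and 17.5% down) and 4 at t6 (38.7%, 18.2% up and 20.5% down). Bnip3 and Slc2a1 rose from t0 in each of these. Adm fell at t2, Ldha fell at t4 and t6, and Pdk1 rose at t6. Groups did not overlap for Slc2a1 at t2 (12.7% of all genes), for Bnip3, Slc2a1 and Ldha at t4 (18.1%) and for Bnip3 at t6 (23%). These comparisons share the t0 libraries with the comparison of t0 with baseline, so a high or low t0 value enters both. The F test over the 5 groups called Bnip3, Slc2a1, Pfkp, Ldha and Pdk1, 5 of 10, against 56.8% of all genes.

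**Figure D1:**
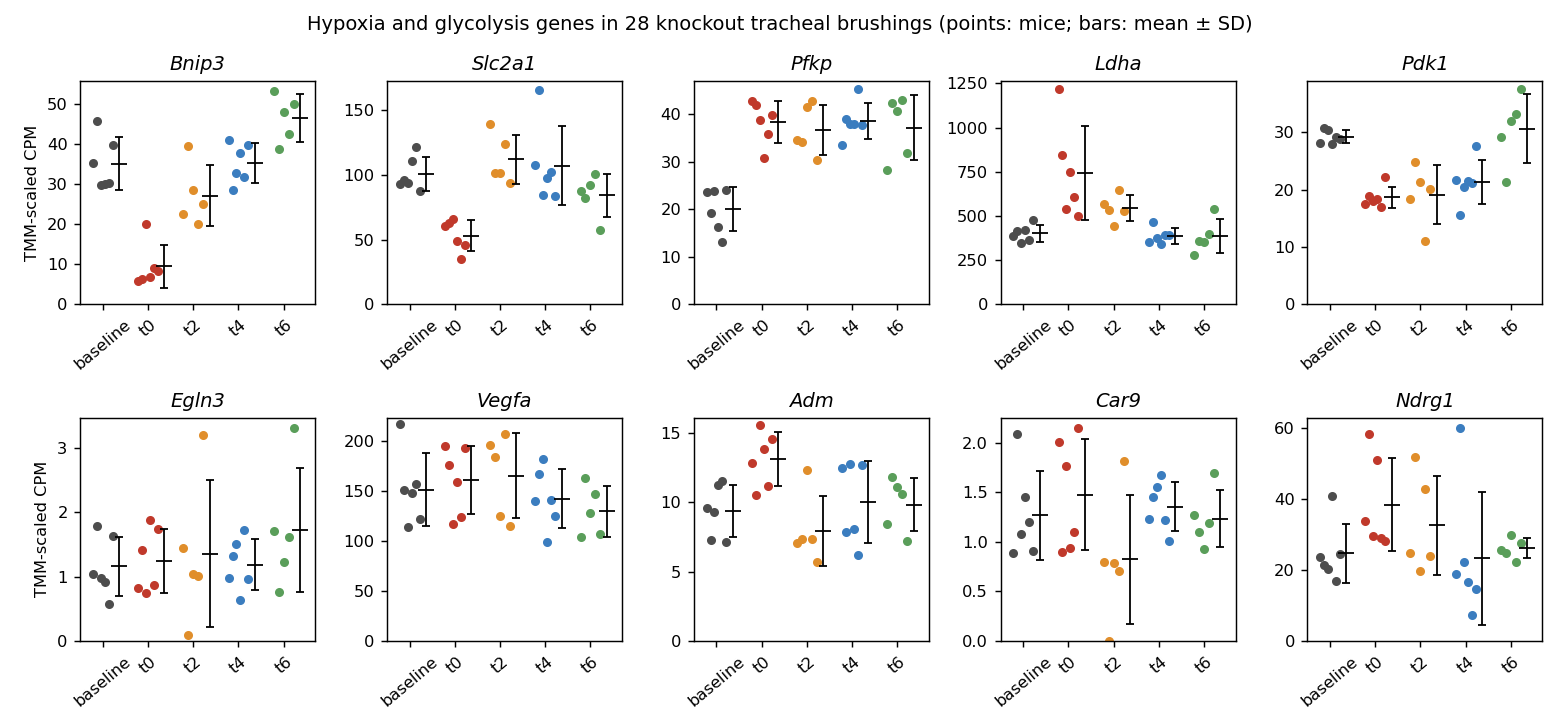
TMM-scaled CPM (vertical axes, each from 0) of the 10 genes in 28 knockout libraries, by group (horizontal axes); points are mice and bars give mean ± SD. Bnip3 and Slc2a1 are lowest at t0, Pfkp is above baseline in every exposed library, and Ldha is above baseline at t0.

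**Figure D2:**
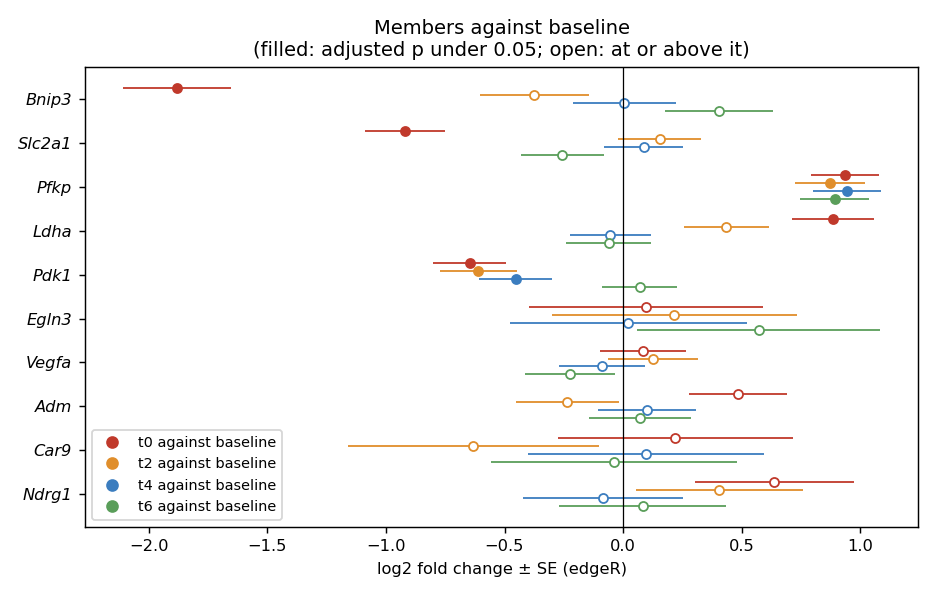
log2 fold change ± SE (horizontal axis) of the 10 genes (vertical axis) at each time against baseline; filled points have an adjusted p under 0.05. Filled points are Bnip3, Slc2a1, Pfkp, Ldha and Pdk1 (t0), Pfkp and Pdk1 (t2 and t4) and Pfkp alone (t6).

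The stretches just before the start sites of the 5 genes that changed are shown because HIF is known to bind the core letters ACGTG or GCGTG. Each holds the 200 bases before the start, from RefSeq (GRCm38.p6, the same coordinates as mm10), read 5′ to 3′ on the strand of the gene. Capitals mark matches to ACGTG or GCGTG on either strand, where a match on the other strand reads CACGT or CACGC. The sequence CACGTG counts as ACGTG on both strands.
Bnip3, chr7:138909507-138909706, minus strand: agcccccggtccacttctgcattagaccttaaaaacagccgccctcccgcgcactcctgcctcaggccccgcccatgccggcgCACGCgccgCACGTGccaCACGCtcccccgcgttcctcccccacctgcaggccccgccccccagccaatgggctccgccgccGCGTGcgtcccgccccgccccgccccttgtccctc
Slc2a1, chr4:119108545-119108744, plus strand: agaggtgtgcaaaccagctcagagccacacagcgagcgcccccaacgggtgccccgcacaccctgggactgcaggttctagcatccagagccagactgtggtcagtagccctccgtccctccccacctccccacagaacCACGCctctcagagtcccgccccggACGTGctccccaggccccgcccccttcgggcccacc
Pfkp, chr13:6648772-6648971, minus strand: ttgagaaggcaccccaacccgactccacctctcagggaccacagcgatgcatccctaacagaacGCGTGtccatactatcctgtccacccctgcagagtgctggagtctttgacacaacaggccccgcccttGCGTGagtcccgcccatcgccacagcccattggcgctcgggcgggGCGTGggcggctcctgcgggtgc
Ldha, chr7:46845604-46845803, plus strand: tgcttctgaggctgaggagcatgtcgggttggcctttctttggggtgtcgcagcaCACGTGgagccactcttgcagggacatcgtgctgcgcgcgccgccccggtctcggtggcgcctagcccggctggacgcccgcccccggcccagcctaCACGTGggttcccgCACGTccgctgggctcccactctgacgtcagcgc
Pdk1, chr2:71873024-71873223, plus strand: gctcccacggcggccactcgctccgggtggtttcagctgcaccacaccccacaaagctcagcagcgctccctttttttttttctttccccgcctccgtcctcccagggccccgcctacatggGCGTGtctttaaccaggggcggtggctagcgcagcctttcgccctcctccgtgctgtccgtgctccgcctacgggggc

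Windows of 300 bases, 250 before and 50 after the start, were held for 9 of the 10 genes, and Ndrg1 had none. In the first window of each gene, 8 of 9 held ACGTG or GCGTG, against 43.8% of 32851 mouse promoter windows. The genes were picked as hypoxia and glycolysis genes, so a share above that of all windows is no result of these data. ACGTG was in 5 of 9 (19.6% of all windows) and GCGTG in 6 of 9 (32.4%). Bnip3 had ACGTG on both strands at one CACGTG, whose matches began 108 and 107 bases before the start, and 3 matches to GCGTG. Ldha had 5 matches to ACGTG, from 2 sites reading CACGTG and 1 reading CACGT, and only 8.21% of all windows had ACGTG at least 2 times. Pfkp had 4 matches to GCGTG and none to ACGTG. Second windows, at another start, were held for Ldha (0 matches to ACGTG and 2 to GCGTG), Vegfa (1 and 1) and Pdk1 (0 and 0). The last 30 bases of the first Ldha window and of the second Vegfa window were in no GENCODE transcript of the gene. The genes that rose at t0 and those that fell both held matches, and so did Car9, Egln3 and Adm, which were not called at t0. A match is a string of letters and not a measured binding site.

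Bnip3 encodes a mitochondrial outer membrane protein that promotes mitophagy, the removal of mitochondria, and lies on chromosome 7 (138890836 to 138909507, minus strand). Its level at baseline was 29.6 CPM at the lowest, 32.7 at the median and 45.7 at the highest. At t0 the lowest, median and highest were 5.93, 7.58 and 20.1 CPM. Every t0 library was below every baseline library, and 20.1 CPM belonged to 359, the other 5 being at 5.93 to 9.13. The t2 libraries stood at 22.5 (334), 39.4 (339), 28.5 (347), 19.9 (358) and 25 CPM (360). At t4 they spanned 28.6 to 40.9 CPM with a median of 35.2, and at t6 they stood at 53.2, 38.6, 48.1, 42.5 and 50 CPM (341, 349, 365, 366, 368). The lowest t2 library lay just under t0 359, the t4 libraries overlapped baseline, and 3 of the 5 t6 libraries were above all baseline libraries.

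Bnip3 fell 3.69-fold at t0 (-1.88 ± 0.23, adjusted p = 2.7e-07, lower in 6 of 6 libraries), from 35.1 ± 6.52 to 9.45 ± 5.35 CPM (SD, n = 6 and 6). Without t0 359 the value was -2.26. It was higher than at t0 by 1.51 ± 0.23 at t2, 1.89 ± 0.23 at t4 and 2.29 ± 0.24 at t6 (adjusted p = 1.6e-05, 3.5e-07 and 1.2e-07), in every library of each group. Against baseline the t2 value was -0.37 (interval -0.84 to 0.09, adjusted p = 0.26), the t4 value 0.01 (interval -0.43 to 0.44, adjusted p = 0.99) and the t6 value 0.41 (interval -0.05 to 0.86, adjusted p = 0.30). Its close relative Bnip3l, another mitophagy receptor, had values of 0.11, -0.31, 0.15 and 0.14 at the 4 times and was not called. Without the 5 libraries its t4 value turned to -0.43 and was called (adjusted p = 0.035).

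Markers of ciliated cells, which carry many mitochondria, fell at t0 as Bnip3 did. With all 28 libraries, Bnip3 was not called against baseline at t2, t4 or t6, nor was any ciliated marker at t2 or t6. Of 6 listed, 5 were in the table and all 5 had counts in every library. Their summed level was 2544 to 3618 CPM (baseline), 649 to 2173 (t0), 2687 to 4441 (t2), 3550 to 5492 (t4) and 3188 to 4529 (t6). All 5 fell at t0, as did 22.3% of all genes, and 2 of the 5 rose at t4 (10% of all genes). Mean sums were 3102 CPM (baseline), 3685 (t2), 4649 (t4) and 3908 (t6). The Bnip3 means were 35.1, 27.1, 35.2 and 46.5 CPM in that order. In t0 359 both Bnip3 and the ciliated sum were the highest of the t0 libraries. Among t2 libraries, 339 was highest for Bnip3 but not for the ciliated sum. That library is the one with 238 Gprc5a counts and the fewest detected genes, so little rests on it. In bulk RNA, fewer cells of a type and less RNA per cell cannot be told apart, and the part of ciliated cells in the Bnip3 result was not tested.

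**Figure D3:**
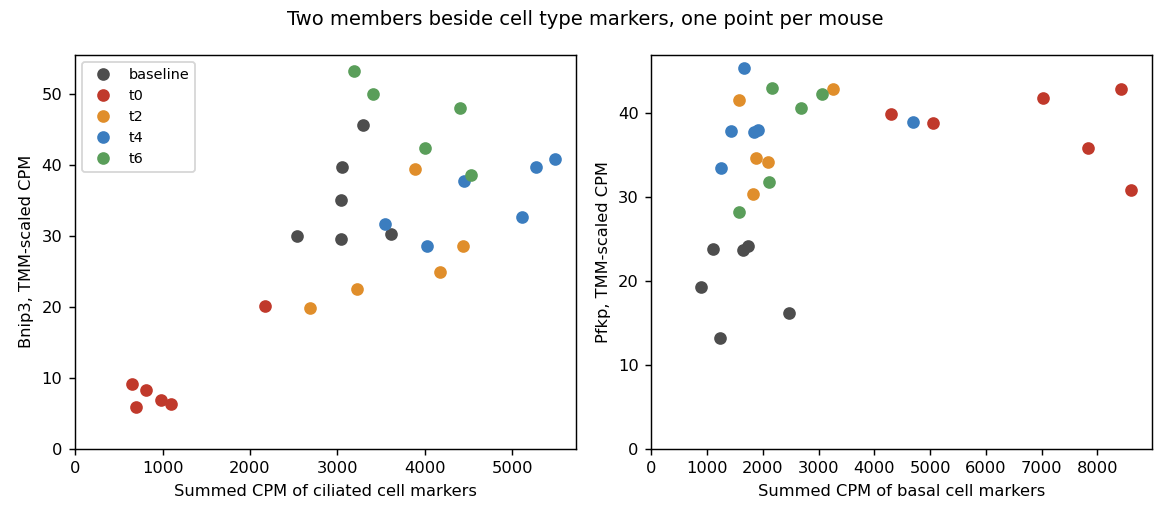
Level of Bnip3 against the summed CPM of 5 ciliated markers (left) and of Pfkp against the sum of 6 basal markers (right), 1 point for each of 28 mice, coloured by group. In the Bnip3 panel 5 t0 libraries lie at the lower left with 359 apart from them; in the Pfkp panel all t2, t4 and t6 libraries stand above baseline, with basal marker sums of 1257 to 4699 CPM, of which only t4 336 reaches the t0 range.

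The genes whose pattern over the 28 libraries was most like that of Bnip3 were Glb1l2, Rpgrip1l and Wdpcp. The measure was the root mean square difference of centred log2(CPM + 1), which was 0.21, 0.22 and 0.24, beside 0.87 for the spread of Bnip3 around its own mean. Rpgrip1l and Wdpcp encode proteins of the cilium base and of ciliary assembly. Mean levels of Rpgrip1l were 103 CPM (baseline), 32.7 (t0), 92.4 (t2), 101 (t4) and 115 (t6).

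Slc2a1 encodes GLUT1, the facilitative transporter for basal glucose uptake (chromosome 4, 119108745 to 119137330, plus strand). Its baseline level was 87.8 CPM at the lowest, 95.0 at the median and 122 at the highest. The same values were 35.0, 54.8 and 66.0 CPM at t0, below all baseline libraries. At t2 the 5 libraries stood at 139 (334), 102 (339), 102 (347), 124 (358) and 93.5 CPM (360). The t4 libraries spanned 83.3 to 166 CPM with a median of 99.9, and those of t6 stood at 87.6 (341), 82.5 (349), 92.4 (365), 101 (366) and 57.4 CPM (368). All later groups overlapped baseline, and 368 at t6 also fell within the t0 range. The highest t4 value was that of 336, the other 5 being at most 108 CPM.

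Slc2a1 fell 1.89-fold at t0 (-0.92 ± 0.17, adjusted p = 7.2e-05, 6 of 6 libraries lower), from 101 ± 13 to 53.1 ± 12 CPM (SD, n = 6 and 6). It was higher than at t0 by 1.08 ± 0.18 at t2, 1.01 ± 0.17 at t4 and 0.66 ± 0.18 at t6 (adjusted p = 3.1e-05, 3e-05 and 0.0037). Against baseline the values were 0.16 at t2 (interval -0.19 to 0.51), 0.09 at t4 (-0.25 to 0.42) and -0.26 at t6 (-0.61 to 0.10), with adjusted p of 0.56, 0.76 and 0.41. The genes nearest in pattern were Dnajb2, Tubb4b and Gpr125, with root mean square differences of 0.27, 0.28 and 0.28, beside 0.48 for the own spread of Slc2a1. Tubb4b, a tubulin of cilia and other microtubules, averaged 1534 CPM at baseline and 1044 at t0. The ciliated sums above were lower at t0 too, and their part in the Slc2a1 result was not tested.

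Pfkp encodes the platelet-type isoform of phosphofructokinase, the committed step of glycolysis (chromosome 13, 6579874 to 6648772, minus strand). At baseline the lowest, median and highest were 13.1, 21.4 and 24.1 CPM. They were 30.8, 39.3 and 42.8 CPM at t0. The t2 libraries stood at 34.6, 34.2, 41.5, 42.8 and 30.4 CPM (334, 339, 347, 358, 360). All of these lay above the highest baseline library. At t4 the lowest, median and highest were 33.4, 37.9 and 45.3 CPM, and the t6 libraries stood at 28.2, 42.3, 40.6, 43.0 and 31.8 CPM (341, 349, 365, 366, 368). Thus all 22 exposed libraries were above all 6 baseline libraries.

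Pfkp rose 1.91-fold at t0 (0.94 ± 0.14, adjusted p = 6.3e-06), from 20.0 ± 4.62 to 38.3 ± 4.4 CPM (SD, n = 6 and 6). It was higher than baseline by 0.87 ± 0.15 at t2 (adjusted p = 0.00028), 0.94 ± 0.14 at t4 (5.2e-05) and 0.89 ± 0.15 at t6 (0.00024). No alternative processing and no library left out ended any of these 4 calls. Against t0 the differences were -0.06 at t2 (interval -0.36 to 0.23), 0.01 at t4 (-0.27 to 0.29) and -0.04 at t6 (-0.34 to 0.25), with adjusted p of 0.78, 0.98 and 0.84. Among all genes tested, 233 rose in all 4 comparisons with baseline (1.57%), and Pfkp was the only one of the 10 among them. None of the 10 was among the 232 genes that fell in all 4 (1.56%). The 4 comparisons share the baseline libraries.

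Markers of basal cells (6 of 6 detected in every library) summed to 897 to 2468 CPM (baseline), 4292 to 8601 (t0), 1564 to 3256 (t2), 1257 to 4699 (t4) and 1573 to 3060 (t6). Their sum was above the baseline range in all t0 libraries and overlapped it at later times. Squamous epithelium markers (6 of 6 in the table, Sprr1b at 0 in every library outside t2) summed to 80.7 to 292 CPM (baseline), 1629 to 4540 (t0), 476 to 831 (t2), 260 to 736 (t4) and 303 to 685 (t6). Like Pfkp, they were above every baseline library at t0, t2 and t6, and in all t4 libraries but 335. Macrophage markers (5 of 6 in the table) summed to 44.4 to 80.4 CPM (baseline), 304 to 1045 (t0), 74.3 to 135 (t2), 62.7 to 215 (t4) and 74 to 124 (t6). The part of these cell types in the Pfkp result was not tested. The gene Pitrm1 overlaps the end of Pfkp on the opposite strand, and whether counting used strand is not given in the sources used here. The nearest genes in pattern were Slc6a8, a creatine transporter, Ifngr1 and Mgat1, with root mean square differences of 0.30, 0.30 and 0.30, beside 0.43 for Pfkp itself.

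The other phosphofructokinase isoforms are named here because they carry out the same step. Pfkl, the liver type, fell at t0 (-0.44 ± 0.14, adjusted p = 0.010) from 120 ± 15.2 to 88.3 ± 10.1 CPM (SD, n = 6 and 6) and had values of 0.09, 0.07 and -0.04 at t2, t4 and t6. Pfkm, the muscle type, fell at t0 (-0.80 ± 0.29, adjusted p = 0.025) and t4 (-0.98 ± 0.29, adjusted p = 0.020). Its t6 value was 0.66 (adjusted p = 0.18), and without the 4 or the 5 libraries it was called as higher there (0.92 and 0.89, adjusted p = 0.025 and 0.029). Scaled by library totals alone, the t0 calls of both were lost (-0.27 and -0.64, adjusted p = 0.15 and 0.10). The difference between isoforms was not tested.

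Ldha encodes the lactate dehydrogenase subunit that favours making lactate from pyruvate (chromosome 7, 46845804 to 46855628, plus strand). At baseline the lowest, median and highest were 349, 400 and 479 CPM. The t0 libraries ranged from 502 to 1216 CPM with a median of 676, all above baseline, and the highest was 332. The t2 libraries stood at 567.7 (334), 532 (339), 444 (347), 648 (358) and 525 CPM (360). Of these, only 347 lay within the baseline range. The t4 libraries spanned 341 to 465 CPM with a median of 384, and the t6 libraries stood at 277 (341), 359 (349), 355 (365), 397 (366) and 538 CPM (368). Both later groups overlapped baseline, and 368 was the one t6 library inside the t0 range.

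Ldha rose 1.85-fold at t0 (0.89 ± 0.17, adjusted p = 0.00015, 6 of 6 libraries higher), from 402 ± 46.8 to 742 ± 266 CPM (SD, n = 6 and 6). Without t0 332 the value was 0.69 (adjusted p = 0.00062). At t2 it was 0.44 ± 0.18 (interval 0.08 to 0.79, adjusted p = 0.083), a result that passed under 3 of 40 alternatives. It fell from t0 to t4 by 0.94 ± 0.17 and from t0 to t6 by 0.95 ± 0.18 (adjusted p = 9.6e-05 and 0.00017). Against baseline the values were -0.05 at t4 (interval -0.40 to 0.29) and -0.06 at t6 (-0.42 to 0.30), adjusted p = 0.86 and 0.89. The nearest genes in pattern were Daxx, Taldo1 and Rab3d, with root mean square differences of 0.23, 0.25 and 0.25, beside 0.45 for Ldha. Taldo1 encodes transaldolase of the pentose phosphate pathway. The basal, squamous and macrophage sums above were also higher at t0 and lower again at t4 and t6, and their part in the Ldha result was not tested. Ldha has 2 named processed copies in the genome, and how reads shared with them were counted is not given in the sources used here.

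Ldhb, the subunit that favours turning lactate back to pyruvate, fell at all 4 times. Its mean was 110 ± 26.1 CPM at baseline, 28.6 ± 10.2 at t0 and 42.0 ± 6.15 at t6 (SD). The log2 fold changes were -1.94 ± 0.21, -1.45 ± 0.22, -1.45 ± 0.21 and -1.39 ± 0.22 (adjusted p = 4.9e-08, 7.4e-05, 2.6e-05 and 0.00013). Ldha was near baseline at t4 and t6, where Ldhb was lower than baseline.

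Club cell markers (6 of 6 detected in every library) were also lower in every exposed library. Their sum was 65987 to 97824 CPM (baseline), 15323 to 24180 (t0), 33160 to 53465 (t2), 29033 to 55439 (t4) and 27290 to 63380 (t6). Their part in the Ldhb and Pfkp results was not tested.

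Of the other glycolytic enzymes and transporters, 31 of 32 listed were tested. At t0, 10 rose and 10 fell (45.5% of all genes were called), with a median of 0.24 over the 31, beside 0.02 over all genes. Those that rose included the hexokinases Hk2 (0.87 ± 0.18, adjusted p = 0.00036) and Hk3 (2.89 ± 0.69, 0.0012), the regulatory enzyme Pfkfb3 (1.46 ± 0.34, 0.00085) and Gapdh (0.82 ± 0.21, 0.0028). Those that fell included the pyruvate kinase Pklr (-2.16 ± 0.36, 2.1e-05), the aldolase Aldoc (-1.02 ± 0.15, 4.3e-06) and the lactate exporter Slc16a3 (-0.91 ± 0.23, 0.0022). Hk2, Gapdh, Eno3 and Slc2a4 were named after their values were seen. Hk3 is an enzyme of myeloid cells and averaged 1.76 ± 1.68 CPM at baseline and 13.1 ± 7.99 at t0, where the macrophage sums above were higher too. Their part in Hk3 was not tested.

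Of the glycolytic list 5 genes rose and 2 fell (t2), 3 rose and 3 fell (t4) and 3 rose and 2 fell (t6), with medians of 0.17, 0.10 and 0.05. The shares of all genes called were 19.9%, 19.6% and 8.83% at these times. Without all 5 libraries the splits were 9 and 10 (t0), 6 and 1 (t2), 6 and 3 (t4) and 4 and 2 (t6). Hk2 was also higher at t2 (0.77 ± 0.19, adjusted p = 0.0059) and t4 (0.93 ± 0.18, 0.00093), and stood at 0.05 ± 0.19 at t6. Slc16a3 rose at t4 (0.88 ± 0.23, 0.0092) after its fall at t0. All 3 genes that rose at t6 were muscle isoforms: Pgam2 (3.26 ± 0.58, adjusted p = 0.00055), Eno3 (2.34 ± 0.41, 0.00047) and the transporter Slc2a4 (2.75 ± 0.50, 0.00066). Skeletal muscle markers, with all 6 in the table, were higher at t6 too. Their sum was 1.65 to 9.76 CPM (baseline), 5.46 to 183 (t0), 93.5 to 1327 (t2), 16 to 75 (t4) and 15.1 to 1406 (t6). All 6 markers also rose at t4. With all 28 libraries Slc2a4 was not called there (1.03, adjusted p = 0.12), though it was without the 4 or the 5 libraries (adjusted p = 0.021 and 0.024). The part of skeletal muscle in these 3 results at t6 was not tested.

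**Figure D4:**
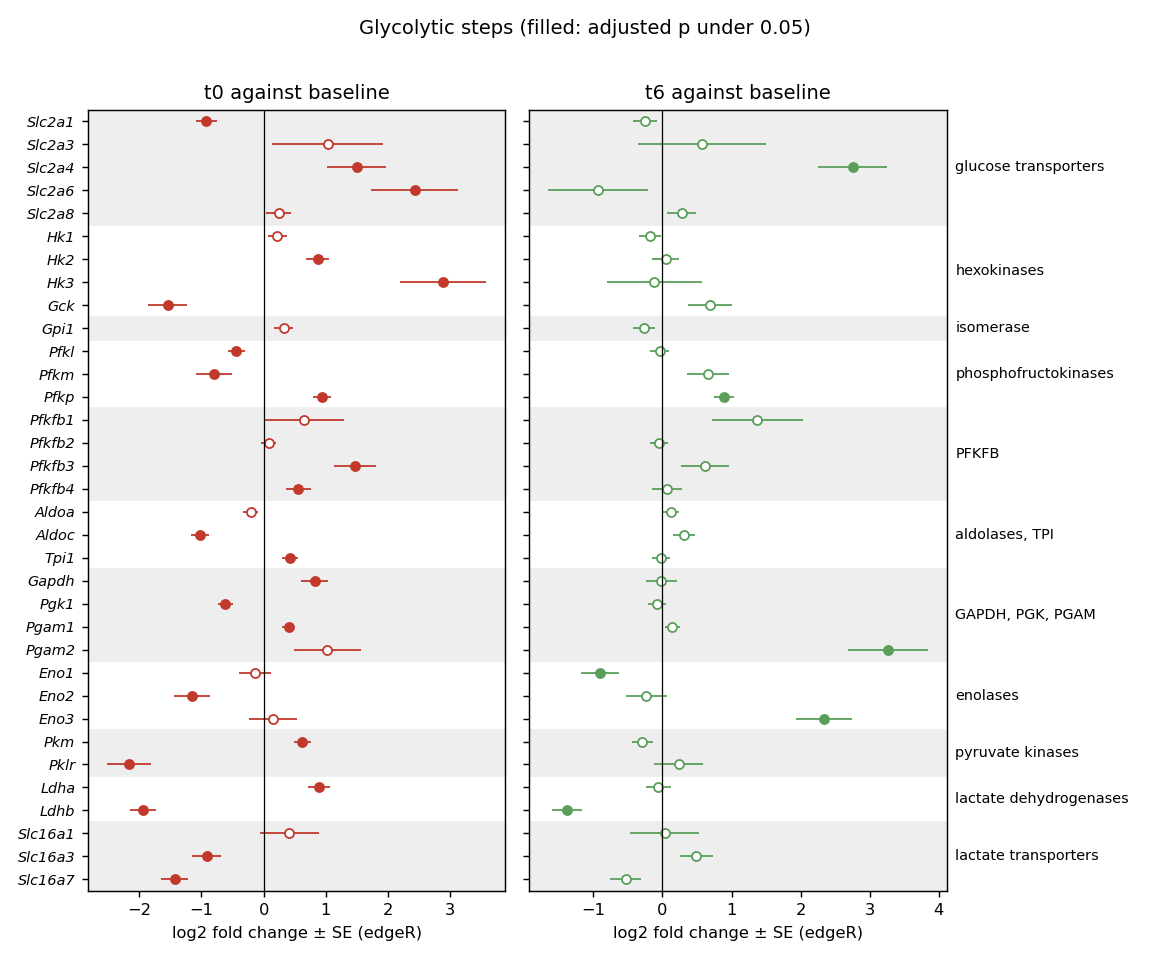
log2 fold change ± SE (horizontal axes) of transporters and enzymes in the order of glycolysis (vertical axis) at t0 (left) and t6 (right) against baseline; filled points have an adjusted p under 0.05. At t0 called isoforms lie on both sides of 0 within the same step, as Pfkp and Ldha above and Pfkl, Pfkm and Ldhb below; at t6 the 3 listed genes that rose besides Pfkp are Slc2a4, Pgam2 and Eno3.

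Pdk1 encodes a kinase that switches off pyruvate dehydrogenase and so keeps pyruvate from the mitochondrial cycle (chromosome 2, 71873224 to 71903859, plus strand). Baseline libraries lay close together, at 28.0 CPM at the lowest, 29.0 at the median and 30.7 at the highest, a coefficient of variation of 3.86%. At t0 the same values were 17.0, 18.2 and 22.2 CPM. The t2 libraries stood at 18.4 (334), 24.9 (339), 21.3 (347), 11.0 (358) and 20.1 CPM (360). At t4 they spanned 15.6 to 27.6 CPM with a median of 21.3. Every library of t0, t2 and t4 was below every baseline library. The t6 libraries stood at 29.2 (341), 21.2 (349), 32.0 (365), 33.1 (366) and 37.6 CPM (368), on both sides of baseline.

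Pdk1 fell 1.57-fold at t0 (-0.65 ± 0.15, adjusted p = 0.0011, 6 of 6 libraries lower) and 1.53-fold at t2 (-0.61 ± 0.16, adjusted p = 0.0090, 5 of 5). It fell at t4 as well (-0.45 ± 0.15, adjusted p = 0.037, 6 of 6), and at t6 stood at 0.07 (interval -0.25 to 0.39, adjusted p = 0.85). From t0 to t6 it rose by 0.72 ± 0.16 (adjusted p = 0.00079). The t4 call was lost under 13 of 40 alternatives, with values of -0.54 to -0.38 and adjusted p of 0.010 to 0.22 over all 40. These included leaving out any 1 of baseline 343, 344, 345, 355 or 356, or of t4 335, 336, 340, 348 or 371. Scaled by library totals alone, the t0 and t2 calls were lost too (-0.47 and -0.49, adjusted p = 0.061 and 0.11).

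The pyruvate dehydrogenase complex and its control were covered by 12 of 12 listed genes. At t0, 1 rose and 4 fell (median -0.18, 45.5% of all genes called), at t2 and t4 none rose and 3 fell (medians -0.21 and -0.33), and at t6 none was called (median -0.16), beside all-gene medians of 0.02, 0.02, 0.01 and -0.01. The shares of all genes called at t2, t4 and t6 were 19.9%, 19.6% and 8.83%. Counted without all 5 libraries, 1 rose and 4 fell at t0, 2 fell at t2 and 3 at t4. Mpc1, a subunit of the mitochondrial pyruvate carrier, fell at t0 (-1.24 ± 0.22, adjusted p = 6.3e-05) and t2 (-0.81 ± 0.24, 0.016), with means of 52.3 ± 7.1 CPM at baseline and 22.1 ± 7.36 at t0. Dld, the dihydrolipoamide dehydrogenase subunit, fell at t0, t2 and t4 (-0.72 ± 0.19, -0.92 ± 0.20 and -0.71 ± 0.19, adjusted p = 0.0030, 0.0027 and 0.010). Pdhx, the subunit that anchors Dld, rose at t0 (0.36 ± 0.12, 0.019). By library totals alone Dld was not called at t0 (-0.51, adjusted p = 0.086) or t4 (-0.65, 0.067). At t6 edgeR called none of the 12, 3 had an unadjusted p under 0.05, and DESeq2 called 1.

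Egln3 encodes a prolyl hydroxylase that is itself a HIF target and feeds back on HIF (chromosome 12, 54178981 to 54203875, minus strand). It was at the edge of detection, with 3 to 115 counts per library and group means of 1.16 to 1.72 CPM. All exposed groups overlapped baseline, and the lowest value (0.0971 CPM) was that of t2 339. The log2 fold change was 0.10 at t0 (interval -0.89 to 1.09, adjusted p = 0.89) and 0.57 at t6 (-0.45 to 1.59, adjusted p = 0.55). The intervals at both times include a rise of 2-fold, so such a rise was not excluded.

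The HIF subunits and oxygen sensors were all tested (13 of 13), and 1 was called at each time. The shares of all genes called were 45.5% (t0), 19.9% (t2), 19.6% (t4) and 8.83% (t6). Hif3a, an HIF alpha paralogue, fell at t0 (-1.55 ± 0.58, adjusted p = 0.032) from 10.9 ± 4.88 to 3.72 ± 2.56 CPM, a call that library totals alone ended (adjusted p = 0.051). Egln1, the main prolyl hydroxylase, rose at t2 (0.40 ± 0.12, 0.016). Epas1, which encodes HIF-2 alpha, fell at t4 (-0.48 ± 0.13, 0.011) and t6 (-0.44 ± 0.14, 0.043), with means of 2985 ± 336 CPM at baseline and 2143 ± 198 at t4. The t6 call of Epas1 was lost with library totals (adjusted p = 0.11), upper-quartile scaling (0.056), haemoglobin genes left out (0.061) and without the 4 (0.084) or 5 libraries (0.053). Hif1a, whose protein is controlled mainly after transcription, had values of -0.09, -0.28, -0.29 and -0.34 and was not called. The list's median at t0 was -0.09, and 0.10 by library totals alone, where 2 rose and none fell.

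Vegfa encodes the main growth factor for vessels (chromosome 17, 46016993 to 46032378, minus strand). Baseline libraries spanned 114 to 217 CPM with a median of 149. The exposed groups ranged from 117 to 195 (t0), 115 to 207 (t2), 98.5 to 182 (t4) and 104 to 163 CPM (t6). All groups overlapped. The means were 151 ± 36.6, 161 ± 33.9, 165 ± 42.2, 142 ± 29.8 and 130 ± 25.6 CPM (SD). The differences from baseline were 0.09 at t0 (interval -0.28 to 0.45), 0.13 at t2 (-0.25 to 0.51), -0.09 at t4 (-0.45 to 0.27) and -0.22 at t6 (-0.60 to 0.16), adjusted p = 0.72, 0.67, 0.77 and 0.53. These intervals exclude a change of 2-fold in either direction.

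Adm encodes adrenomedullin, a peptide that widens vessels and protects epithelia (chromosome 7, 110627669 to 110629820, plus strand). At baseline the lowest, median and highest were 7.16, 9.46 and 11.6 CPM, and at t0 10.5, 13.3 and 15.6 CPM. The t2 libraries stood at 7.04, 7.35, 12.3, 7.32 and 5.71 CPM (334, 339, 347, 358, 360). Baseline and t0 overlapped slightly, and 347 alone of the t2 libraries was within the t0 range. The t0 value was 0.48 ± 0.21 (interval 0.07 to 0.90, adjusted p = 0.056), and 12 of 40 alternatives brought it under the threshold, with adjusted p of 0.028 to 0.12 over all 40. Adm fell from t0 to t2 by 0.72 ± 0.22 (adjusted p = 0.013, 5 of 5 libraries lower). The later values against baseline were 0.10 at t4 and 0.07 at t6, neither called.

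Genes of VEGF and adrenomedullin signalling were tested for 13 of 15 listed. At t0, 5 rose and 1 fell (median 0.33), at t2 3 rose, at t4 4 rose and 1 fell, and at t6 1 rose. Without all 5 libraries the splits were 5 and 1, 3 and 0, 5 and 2 and 2 and 0. Called at t0 were 6 of 13, beside 45.5% of all genes. The shares of all genes called at t2, t4 and t6 were 19.9%, 19.6% and 8.83%. Flt1, the VEGF receptor 1 gene, rose at t0 by 4.07 ± 0.83 (adjusted p = 0.00025) from 0.439 ± 0.398 to 7.47 ± 3.11 CPM, and the co-receptor Nrp2 by 3.56 ± 0.38 (4.2e-08) from 2.81 ± 0.847 to 33.2 ± 18.4 CPM. The co-receptor Nrp1 rose at t0 (1.09 ± 0.32, 0.0062), while the receptors Kdr and Flt4 were not called (0.33 and -0.07, adjusted p = 0.71 and 0.93). Kdr and Flt4 were named after their values were seen. Nrp2 was also higher at t2 (1.89 ± 0.37, 0.00094) and t4 (1.60 ± 0.36, 0.0026). Pgf, a ligand of Flt1, rose at t0 (2.03 ± 0.54, 0.0033) and t4 (1.95 ± 0.54, 0.013). The lymphatic factor Vegfc fell at t0 (-2.14 ± 0.62, 0.0060) and t4 (-1.84 ± 0.62, 0.036). Figf (VEGF-D) rose at t4 (0.99 ± 0.25, 0.0071) and t6 (1.26 ± 0.26, 0.0025).

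Endothelial markers (6 of 6 in the table) summed to 8.58 to 13.9 CPM at baseline, 19.4 to 74.3 at t0, 12.8 to 27.5 at t2, 13.4 to 17.2 at t4 and 13.3 to 23.2 at t6. Of the 6, 1 was called at t0 (45.5% of all genes), and none of the 6 was at 0 in all libraries of a group. The part of endothelial cells or macrophages in the results for Flt1, Nrp1 and Nrp2 was not tested.

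Car9 encodes a membrane carbonic anhydrase that takes part in the control of pH and is widely used as a hypoxia marker (chromosome 4, 43507026 to 43513726, plus strand). It was near the detection limit, with 0 to 64 counts per library and group means of 0.822 to 1.48 CPM. The single 0 was in t2 339. All groups overlapped baseline, and the difference was 0.22 at t0 (interval -0.77 to 1.21, adjusted p = 0.74) and -0.63 at t2 (-1.69 to 0.43, adjusted p = 0.42). A 2-fold change was not excluded at either time.

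Of the other carbonic anhydrases, 9 of 15 listed were tested, with 2 up and 2 down at t0 (45.5% of all genes called), 2 and 1 (t2), 1 and 1 (t4) and 2 and 0 (t6). The shares of all genes called at t2, t4 and t6 were 19.9%, 19.6% and 8.83%. Without all 5 libraries the splits were 2 and 2, 3 and 1, 2 and 1 and 2 and 1. Car4, a membrane form, rose at t0, t2 and t4 (4.15 ± 0.68, 3.20 ± 0.67 and 3.40 ± 0.66, adjusted p = 1.6e-05, 0.0017 and 0.00078) from 0.328 ± 0.136 to 5.91 ± 2.74 CPM at t0. Car8, a catalytically inactive relative, fell at t0 (-1.69 ± 0.19, adjusted p = 9.1e-08) from 302 ± 32.2 to 93.9 ± 40.8 CPM. Car11, another inactive relative, fell at t0 (-1.88 ± 0.50, 0.0029). Car8 was lower at t2 (-0.73 ± 0.20, 0.0098) and t4 (-0.63 ± 0.19, 0.017) as well, calls that library totals alone ended (adjusted p = 0.080 and 0.11). Car3, a form of muscle and fat, rose at t0 (2.56 ± 0.76, 0.0078), t2 (2.76 ± 0.78, 0.015) and t6 (3.93 ± 0.82, 0.0031). It was not called at t4 with all 28 libraries. The skeletal muscle sums above overlapped baseline at t0 and were above every baseline library at t2, t4 and t6. The part of skeletal muscle in Car3 was not tested.

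Ndrg1 encodes a protein induced by stress, hypoxia and differentiation (chromosome 15, 66929318 to 66969642, minus strand). Its libraries spread widely: 17.0 to 40.9 CPM (baseline), 28.3 to 58.4 (t0), 19.8 to 51.9 (t2), 7.27 to 60.1 (t4) and 22.4 to 29.9 (t6), with medians of 22.6, 31.7, 24.9, 17.7 and 25.6. All groups overlapped baseline, though 6 of 6 t0 libraries were above the baseline mean. The t0 value was 0.64 ± 0.34 (interval -0.04 to 1.31, adjusted p = 0.12). The value at t4 against t0 was -0.72 ± 0.34 (adjusted p = 0.10). Without library 336, at 60.1 CPM, the latter was -1.27 (adjusted p = 0.00079), and with it kept limma gave -0.92 on log2(CPM + 1) and -0.96 on log2(CPM + 0.1) (adjusted p = 0.022 and 0.023). The t0 value against baseline had an adjusted p of 0.044 without 336 and of 0.039 when only those 2 groups were fitted. In 336 the basal marker sum (4699 CPM) was also the highest of t4, and its part was not tested.

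The family members Ndrg2, Ndrg3 and Ndrg4 were all tested. Ndrg2, linked to differentiation, rose at t0 (2.49 ± 0.42, adjusted p = 3.2e-05) from 7.29 ± 1.86 to 40.9 ± 10.8 CPM, and at t6 (1.53 ± 0.43, 0.023). Ndrg3 fell at t0 (-0.34 ± 0.12, 0.027) and t4 (-0.59 ± 0.12, 0.0017), the first of which was lost by library totals alone (-0.16, adjusted p = 0.48) and without the 5 libraries (-0.31, adjusted p = 0.067). Ndrg4 was not called.

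Among 30 further genes known as HIF targets, 28 were tested. At t0, 9 rose and 8 fell (45.5% of all genes were called), with a median of 0.12 beside 0.02 over all genes. At t2, 1 rose and 4 fell, at t4 1 and 5, and at t6 1 and 4, with medians of 0.07, 0.08 and -0.13. The shares of all genes called at t2, t4 and t6 were 19.9%, 19.6% and 8.83%. Without all 5 libraries the splits were 9 and 7, 1 and 3, 3 and 6 and 1 and 5. By library totals alone 10 rose and 4 fell at t0. Angptl4, which inhibits lipoprotein lipase, rose at t0 (2.96 ± 0.45, 7.4e-06) and t2 (1.33 ± 0.45, 0.037), and the repressor Bhlhe41 at t0 (2.60 ± 0.47, 6e-05). Bhlhe40, a relative of Bhlhe41, rose at t4 (0.77 ± 0.26, 0.036), and the Myc antagonist Mxi1 at t6 (0.46 ± 0.14, 0.033), though not by library totals alone (adjusted p = 0.065). The collagen cross-linking enzyme Lox fell at t0 (-2.51 ± 0.58, 0.00085) and t4 (-1.85 ± 0.56, 0.022).

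Trf, Tfrc and Higd1a of this list fell at all 4 times. Trf encodes the iron carrier transferrin and fell by 2.38 ± 0.28 (t0), 1.18 ± 0.28 (t2), 1.3 ± 0.27 (t4) and 1.85 ± 0.29 (t6), with adjusted p = 1.6e-07, 0.0047, 0.0014 and 0.00013 in that order. Its mean was 832 ± 368 CPM at baseline and 230 ± 28.6 at t6. Tfrc, the receptor for transferrin, had values of -0.67, -0.79, -0.75 and -1, and was not called at t0 by library totals alone (-0.47, adjusted p = 0.064). Higd1a, a mitochondrial protein of the respiratory chain, had values of -1.28, -1.01, -1.14 and -0.88 (adjusted p = 2.1e-05, 0.0026, 0.00055 and 0.012). Both Tfrc and Higd1a were named after their values were seen. The 10 genes and the listed HIF targets thus held calls in both directions at t0.

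Levels can be compared between genes only per length, which the wild-type tables give as length-scaled transcript shares (TPM). Over the 6 unexposed wild-type libraries the order was Ldha (245 ± 61.7 TPM, SD), Vegfa (98 ± 26.4), Slc2a1 (36.3 ± 9.66), Bnip3 (27.7 ± 13.2), Pdk1 (17.1 ± 14.9), Pfkp (12.3 ± 8.23), Ndrg1 (7.06 ± 3.64), Adm (4.02 ± 1.78), Car9 (0.628 ± 0.488) and Egln3 (0.555 ± 0.443). Library 295 held the highest Pdk1 (45.6 TPM) and Pfkp (27.4 TPM), whose medians were 13.7 and 9.665 TPM. Its estimated counts, not scaled for library size, were 468 (Pdk1) and 299 (Pfkp). The highest counts were 639 for Pdk1 (library 289) and 645 for Pfkp (library 452). Why TPM and counts differ in 295 was not tested, so its high TPM is not read as high expression. The order of the genes by median was the same as by mean. Libraries of Ldha and Vegfa, of Vegfa and Slc2a1, and of Adm and Car9 did not overlap, and all other neighbours in the order did. Per length, Pfkl stood at 42.2 ± 13.4 TPM, above Pfkp in mean, and Ldhb at 91.3 ± 32.1 TPM, below Ldha. Car9 was listed at 0 in 1 of the 6 libraries. No test between genotypes was run, because the tables were made separately.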

How the data were processed

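RNA from tracheal brushings was read as poly-A libraries on an Ion Proton, per the labels' protocols. Despite a name that speaks of RPKM, the deposited table of knockout libraries holds estimated counts per gene: 76.3% of values above 0 were whole within 0.01. Per the submitters' processing notes it was made with mm10, STAR 2.4.1d, Bowtie2 2.1.0 and Partek, with roles, filters and strand use not given in the sources used here. The wild-type files hold deposited RSEM TPM and estimated counts, per the file headers. RSEM 1.3.1 and STAR 2.7.0f on GRCm38 were used, per the submitters' processing notes.

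Estimated counts were rounded. Genes reaching 1 CPM in 5 or more of the 28 libraries were kept and scaled by TMM. One edgeR fit (edgeR 4.0.16, R 4.3.3, robust quasi-likelihood) held a mean per group, with no covariate, and 7 comparisons and an F test were made. The method was tested on simulated data. A limma fit for RPKM was to be used if the table held RPKM. Alternatives were other scalings and filters, DESeq2 1.42.0, limma 3.58.1 on log2(CPM + 1) and log2(CPM + 0.1), sex read from the data, only the groups compared, haemoglobin genes left out, each library left out in turn, and 4 or 5 libraries left out together.

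The 10 genes, the 7 pathway lists and the 12 marker lists were chosen with earlier results of these data known. All 10 genes are described. From each pathway list the called gene with the largest rise and largest fall at each time is named, with the leading genes of the F test, and for the 4 genes with the smallest F test p the 3 genes nearest in pattern. One gene that this rule names is not reported here. Most of the 12 marker lists stand beside results. Sums of the rest were 0.734 to 148 CPM (neutrophils, baseline) and 16.2 to 139 (t0), 13.2 to 43.1 (smooth muscle, baseline) and 33.2 to 393 (t6), and 93.6 to 296 (fibroblast and cartilage, baseline) and 31.5 to 109 (t4). Erythroid sums reached 287413 CPM in t4 371. Tables and plots used Python 3.11.15, pandas 2.3.3 and matplotlib 3.10.9.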

Additional observations from a re-analysis of the deposited data

Results flagged for a closer look

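In 50 groups of 5 or 6 libraries (10 genes in 5 groups), the highest or lowest value stood apart by Dixon's ratio at its 95% critical value 6 times, where chance gives about 1 in 20. Bnip3 in t0 359 was at 20.1 CPM, the other 5 t0 libraries being at 5.93 to 9.13. Pdk1 in t0 375 was at 22.2 CPM (others 17.0 to 18.9). Slc2a1 in t4 336 was at 165.9 CPM (others 83.3 to 107.7), and Ndrg1 in the same library at 60.1 CPM (others 7.27 to 22.3). Ndrg1 in baseline 352 was at 40.9 CPM (others 17.0 to 24.5), and Adm in t2 347 at 12.3 CPM (others 5.71 to 7.35). All 6 were the highest of their group.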

How the results depend on the processing

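No log2 fold change of the 10 genes that was called changed direction under the alternatives. At t4 against baseline 1 gene (Pfkp) in place of 2 was called with library totals only, with no filter on low counts and with haemoglobin genes left out, and leaving out single libraries gave 1 to 2. At t6 against baseline 2 genes (Pfkp, Bnip3) were called without the 5 libraries, an alternative chosen after seeing the data. Over all genes, t6 against baseline had 1311 calls, 833 with library totals only and 910 to 2052 with single libraries left out, the highest without t2 339. By library totals alone the share of calls that rose was 69.4% at t0 (51.1% with TMM), 80.3% at t2 (56.1%), 71.2% at t4 (51.2%) and 72% at t6 (51.4%) against baseline, while against t0 it was 44.8% (52.4%) for t2, 36.8% (47.7%) for t4 and 35.5% (47%) for t6, and the all-gene median became 0.19 at t0 and 0.12 at t2. Ldha at t2 against t0 passed under 9 of 40 alternatives, and Adm in the F test under 8 of 39. Adm at t2 against t0 was lost when only these groups were fitted (adjusted p = 0.051). The cause of these changes was not tested. No paired analysis was possible because each mouse gave 1 library and no animal number recurs between groups. The groups of 5 or 6 mice limit precision, and Egln3 and Car9 had few counts.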
